A study of Mus musculus with 6 samples.

Results

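The genes described here encode the constitutive proteasome and the factors that assemble it. They were chosen by gene symbol alone: Psma1 to Psma7, Psmb1 to Psmb7, every symbol that starts with Psmc, Psmd or Psmg and a digit, and Pomp. The array annotation lists 40 such genes, with 70 probes, among 19057 genes with a symbol. Of the 40, 35 had a probe above background and were tested, among 9756 genes tested in all. They were measured in murine cancer cells that carry the rat her-2/neu oncogene, a receptor tyrosine kinase. One group of 3 arrays came from untreated cells, and the other group of 3 arrays came from the same cells after 6 h with 8 µM withaferin A, a plant withanolide. The labels name no vehicle for the untreated cells, no promoter for the oncogene and no clone, and they say that replicates were made at passages 2, 3 and 4 without tying a passage to a replicate number. Separate cultures are thus given through the passages alone. The p-values rest on the array-to-array spread within each group, except where a fit takes same-numbered arrays as blocks or a permutation test is named.

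The proteasome is the barrel-shaped protease that degrades ubiquitin-tagged proteins. Its core particle is a stack of alpha and beta rings, in which the beta subunits carry the proteolytic sites. The regulatory particle that caps the core has a base, with a ring of ATPases that unfolds substrates, and a lid, which removes ubiquitin. Dedicated chaperones build the core (Psmg1 to Psmg4 and Pomp) and the base (Psmd5, Psmd9 and Psmd10). When proteasomes are inhibited, mammalian cells are known to raise their subunit genes together through the transcription factor NRF1, and withaferin A has been described as a proteasome inhibitor in other cells.

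The promoters of Psmd5 and Psmd11 are shown because these were the members whose transcripts rose past the threshold. Each sequence is the 250 bases before the RefSeq start of the gene, written 5′ to 3′ on the strand of the gene, in build GRCm38.p6. Psmd5 lies on the minus strand (chr2:34870963-34871212) and Psmd11 on the plus strand (chr11:80428365-80428614). Capitals mark matches to the palindrome TCTCGCGAGA, which was picked after the Psmd5 sequence had been read.
Psmd5: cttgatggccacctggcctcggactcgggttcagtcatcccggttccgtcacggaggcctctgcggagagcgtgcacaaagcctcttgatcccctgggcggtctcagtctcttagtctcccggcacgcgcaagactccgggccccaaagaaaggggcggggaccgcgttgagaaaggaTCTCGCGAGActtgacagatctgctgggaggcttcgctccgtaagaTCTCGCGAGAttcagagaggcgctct
Psmd11: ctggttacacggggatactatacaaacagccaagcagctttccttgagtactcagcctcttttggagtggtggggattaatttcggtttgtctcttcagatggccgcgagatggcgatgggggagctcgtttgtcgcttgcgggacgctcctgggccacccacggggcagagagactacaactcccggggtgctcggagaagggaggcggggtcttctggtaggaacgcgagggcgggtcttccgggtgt

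The palindrome occurred at -72 and -26 from the start of Psmd5 and in no other window among 35 windows of 33 members. Across all 32851 promoter windows of 300 bases, 0.466% held it, and 11 windows (0.0335%) held at least 2 copies. Both promoters lacked the 3 motifs chosen for the stress and housekeeping factors of these genes, searched on both strands. The core of the antioxidant response element, TGACNNNGC, to which NRF1 and NRF2 bind, was found in 5 members (Psmb5, Psmb6, Psmc6, Psmd9 and Psmd12), or 14.3% of member windows against 12.4% of all windows. The CCAAT box, CCAAT, was found in 12 members, or 34.3% of windows against 37.4%, and in none of the 5 with the antioxidant core. The heat shock element, GAANNTTC followed by any 2 bases and GAA, was found in 0 members and in 0.603% of all windows. The promoters of Psmb1, Psmb2, Psmb7, Psmc3, Psmd3, Psmd7 and Psmg2 were not analysed here.

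Before normalization the median raw intensity over tested probes was 218.5 to 235.9 on untreated arrays and 191.8 to 202 on withaferin A arrays, so the treated arrays were dimmer as a group. Values below are log2 intensities after background correction and quantile normalization, and changes are withaferin A minus untreated. Across 9756 genes, 274 were called higher and 392 lower by limma at a Benjamini-Hochberg adjusted p under 0.05. Without normalization between arrays those counts were 160 and 1528, and the median change over all genes moved from 0.0054 to -0.23. At their brightest probe, the epithelial genes Krt8, Krt18 and Cdh1 and the mesenchymal genes Vim and Pdgfra were above background on every array. Krt19, a further epithelial keratin, was above background on 2 of 3 arrays in each group. Epcam, Col1a1, Ptprc, Cd3e, Pecam1 and Cdh5 were above background on none. Of the mesenchymal markers Pdgfra fell by 1.10 (limma adjusted p = 0.0327), and the summed intensity of the 2 tested ones was 13435 to 16364 on untreated and 8752 to 14764 on treated arrays. The 4 tested epithelial markers summed to 13932 to 16624 and 10902 to 14685, with 0 calls. Of these 4, 3 had negative changes and 1 a positive one, and Krt18 was lower on every treated array (change -0.70, limma adjusted p = 0.0674). The part of either list in the results below was not tested. The mouse Erbb2 probe, whose match to the rat transgene is not given, had a change of 0.44 (limma adjusted p = 0.128). In such bulk RNA, fewer cells of a type and less RNA per cell cannot be told apart.

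Most proteasome transcripts had small positive changes after withaferin A, and few of them passed the test. Of the 35 tested genes, 2 rose (5.71%, against 2.81% of all tested genes), 0 fell (against 4.02%) and 33 did not pass. The 2 were Psmd5, a chaperone of the base, and Psmd11, a lid subunit. The sign of the change was positive in 28 of 35 genes, against 50.7% of all genes, and the median change was 0.29. Unadjusted, 9 genes were higher at p under 0.05 (25.7%, against 11.8%) and 0 were lower (against 14.2%). In 11 genes every withaferin A array lay above every untreated array (31.4%, against 14.9%), and in 0 every withaferin A array lay below (against 15.8%). These genes were read on the same 6 arrays, so their signs are not independent. Of the 33 genes not called, 30 had a 95% interval that lay wholly within 1 log2 unit of no change, and the 3 others (Psmc4, Psmc5 and Psmd7) had an upper bound above it.

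**Figure D1:**
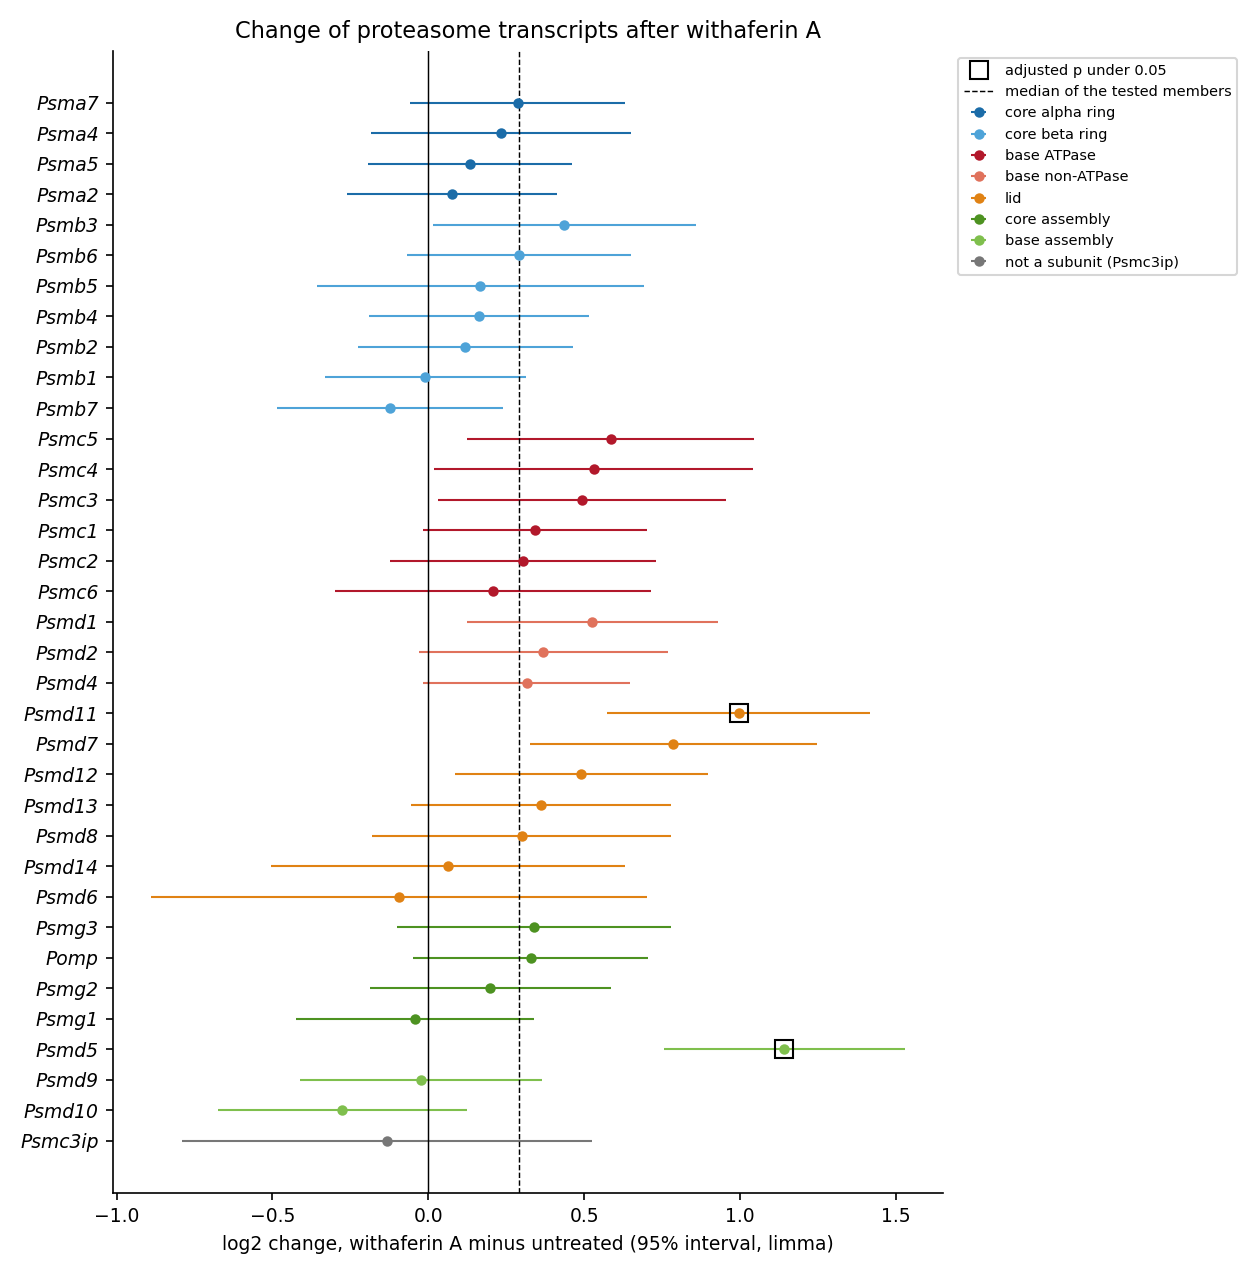
Log2 change (x axis, withaferin A minus untreated, n = 3 arrays each) of the 35 tested genes, grouped by role, with the 95% interval from limma as bars. Squares mark Psmd5 (1.14) and Psmd11 (1.00), and the dashed line is the median of the 35 genes, 0.29. Base and lid genes lie mostly to the right of the core genes.

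Among the chaperones of the base, Psmd5 rose and its companions did not. Psmd5 holds an ATPase module of the base until the regulatory particle is joined, and can act as an inhibitor of that joining. Untreated arrays 1 to 3 had log2 intensities of 8.80, 8.94 and 8.43, and treated arrays 1 to 3 had 9.80, 9.84 and 9.96. The groups did not overlap, and the treated arrays lay closer together, with an SD of 0.082 against 0.26 in untreated cells. The rise was 2.21-fold (log2 change 1.14, SE 0.17, 95% interval 0.76 to 1.53, limma adjusted p = 0.00589), and Psmd5 ranked 122 of 9756 genes from the largest rise. Its second probe was not above background on any array. Psmd10, known as gankyrin, which binds an ATPase of the base and is also an oncoprotein, read 10.52, 10.62 and 10.87 without and 10.35, 10.18 and 10.65 with withaferin A. Its groups overlapped, with treated array 3 among the untreated values. The change was -0.28 (95% interval -0.68 to 0.12, limma adjusted p = 0.375). One of its other probes had -0.40, where every treated array lay lower, and the other had -0.16 with overlap. Psmd9, a chaperone of another ATPase pair, had a change of -0.023 (limma adjusted p = 0.954).

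**Figure D2:**
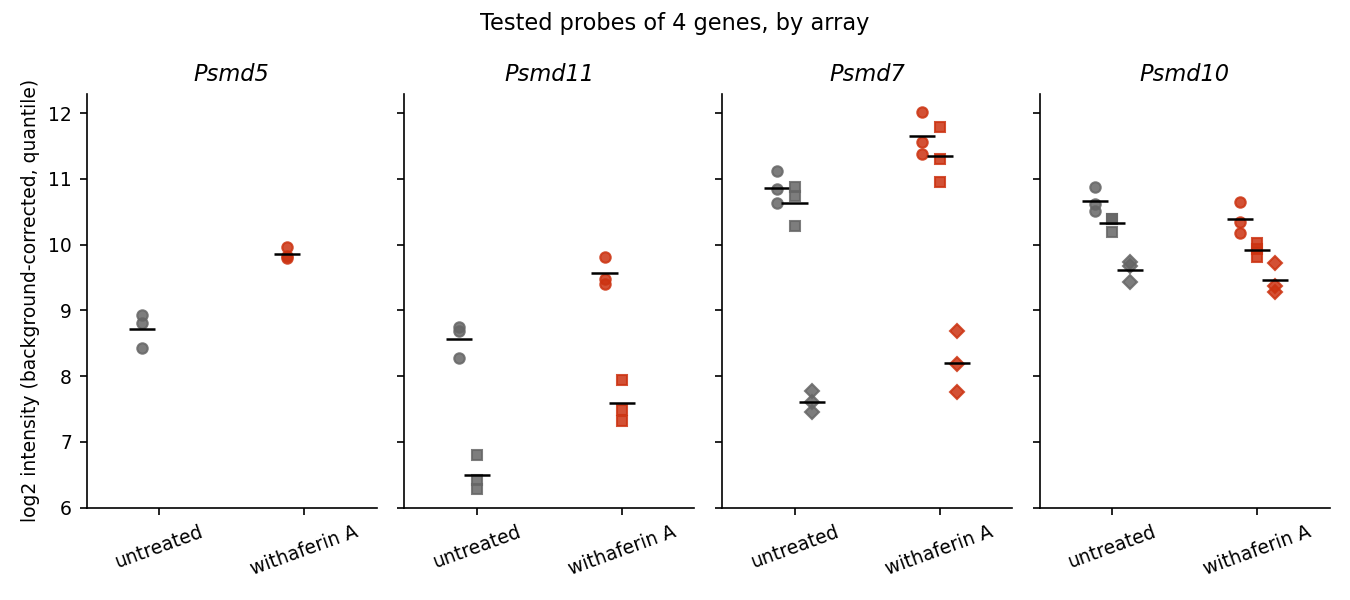
Log2 intensity (y axis) of every tested probe of Psmd5, Psmd11, Psmd7 and Psmd10 on the untreated and withaferin A arrays, with 1 marker shape per probe, 1 point per array and bars at group means. The groups separate for Psmd5, for both Psmd11 probes and for 2 of 3 Psmd7 probes, while Psmd10 runs the other way with overlap at 2 of 3 probes.

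The lid held the other called member and the nearest miss. Psmd11, a scaffold subunit of the lid whose higher abundance is known to raise proteasome assembly in human stem cells, had 8.69, 8.27 and 8.75 on untreated arrays and 9.48, 9.81 and 9.41 on withaferin A arrays. Every treated array exceeded every untreated one. It rose 1.99-fold (log2 change 1.00, SE 0.19, 95% interval 0.57 to 1.42, limma adjusted p = 0.0170). Its second tested probe rose by 1.09 (limma adjusted p = 0.0192), and the remaining probe was not above background. Over probes, 3 of 57 tested member probes were higher (5.26%, against 2.55% of all tested probes). The call at the first Psmd11 probe was lost without withaferin A array 1 (limma adjusted p = 0.0626) or array 2 (limma adjusted p = 0.0609), while that of Psmd5 was kept in every fit that left out 1 array.

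Psmd7, the partner of the deubiquitinase Psmd14 in the lid, had 11.12, 10.85 and 10.63 on untreated arrays and 11.57, 12.01 and 11.38 on treated arrays. The groups did not overlap, and the 1.72-fold difference (log2 change 0.79, 95% interval 0.33 to 1.25) missed the threshold (limma adjusted p = 0.0553). Of 14 alternative fits, 3 called Psmd7. It was called without withaferin A array 3 (limma adjusted p = 0.0327) and with replicate number as a block. The third was the deposited value table (limma adjusted p = 0.00604), where 12.5% of all genes were called higher. Over the alternatives the limma adjusted p of Psmd7 ran up to 0.171, and with 1 array left out its change fell as low as 0.61. Its other probes had changes of 0.71 and 0.60. Psmd12, a scaffold subunit like Psmd11, had a change of 0.49 without overlap (limma adjusted p = 0.139), but its other probe had 0.038. Psmd13 had a change of 0.36 and Psmd8 one of 0.30, both with overlapping groups. Psmd14, which cleaves ubiquitin from substrates, had 0.063 (95% interval -0.50 to 0.63). Psmd6, a structural lid subunit, was the tested lid gene within the symbol rule with a negative change, -0.094. It read 6.86, 6.27 and 7.27 on untreated arrays and 6.66, 7.44 and 6.03 on treated arrays, so the treated arrays held both its highest and its lowest value. Over the 7 tested lid genes the median was 0.36. Of these, 1 was higher (against 2.81% of all tested genes), 0 were lower (against 4.02%) and 6 did not pass.

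All 9 base genes had positive changes, against 50.7% of all tested genes. Of the 9, 0 passed, where 2.81% of all tested genes were called higher and 4.02% lower. The 6 ATPase genes, Psmc1 to Psmc6, ranged from 0.21 to 0.58 with a median of 0.42. Psmc5 had the largest change, with 10.85, 10.75 and 10.34 on untreated arrays and 11.24, 11.53 and 10.93 on treated arrays. Its groups were apart by a narrow margin, and the change was 0.58 (95% interval 0.12 to 1.05, limma adjusted p = 0.122), with 0.67 at its other probe (limma adjusted p = 0.0692). Psmc4 (0.53), Psmc3 (0.49) and Psmc2 (0.30) had overlapping groups, and Psmc1 (0.34) did not. Psmc6 had the smallest change, at a probe near background. Its raw intensities were 89.1 to 108.1, where untested member probes reached 82. Psmc6 read 4.99, 5.05 and 5.65 on untreated arrays and 5.44, 5.74 and 5.12 on treated arrays, with untreated array 3 between the treated values. Among the other base genes, Psmd1, the large scaffold on which the base is built, read 12.49, 12.05 and 12.30 against 12.65, 13.05 and 12.73. The groups did not overlap at this probe (change 0.53, 95% interval 0.13 to 0.93, limma adjusted p = 0.112), whereas its other probes, with changes of 0.37 and 0.36, had overlapping groups. Psmd4, a ubiquitin receptor, read 12.03, 12.25 and 11.99 against 12.42, 12.36 and 12.44, a small difference without overlap (change 0.32, limma adjusted p = 0.227). Psmd2, the docking platform for shuttle receptors, had a change of 0.37 with overlap.

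The core genes differed less. Over the 11 tested core genes, 0 passed (against 2.81% of all tested genes called higher and 4.02% lower). Of these, 9 had positive changes (against 50.7%), and the median was 0.16, against 0.37 over the 16 tested base and lid genes. This is a description of medians, and the difference between the classes was not tested. In the alpha ring, which gates entry to the core, 4 of 7 genes were tested, with changes from 0.077 to 0.29. Psma7 had the largest, with 12.25, 12.25 and 12.20 on untreated arrays and 12.41, 12.73 and 12.43 on treated arrays. Its groups did not overlap (95% interval -0.058 to 0.63, limma adjusted p = 0.287), and its other probe had a change of 0.35. Psma2 had the smallest, with 13.24, 13.20 and 13.30 against 13.19, 13.48 and 13.30, which overlapped. Psma4 (0.23) also overlapped, and Psma5 (0.13) did not, by a narrow margin.

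In the beta ring the changes of 7 genes ran from -0.12 to 0.44. Psmb3, a structural beta subunit, read 12.03, 11.71 and 11.70 on untreated arrays and 12.24, 12.54 and 11.97 on treated arrays. Untreated array 1 thus lay above treated array 3, and the change was 0.44 (95% interval 0.014 to 0.86, limma adjusted p = 0.193). The catalytic subunits were Psmb5, with chymotrypsin-like activity, Psmb6, with caspase-like activity, and Psmb7, with trypsin-like activity. Psmb6 had a change of 0.29 without overlap, and Psmb5 one of 0.17 with overlap. Psmb7 read 12.29, 12.20 and 12.58 against 12.16, 12.35 and 12.19, a change of -0.12 (95% interval -0.49 to 0.24), while its 3 other probes had small positive changes of 0.013 to 0.14. Psmb1, Psmb2 and Psmb4 had changes of -0.0090, 0.12 and 0.16 with overlapping groups.

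**Figure D3:**
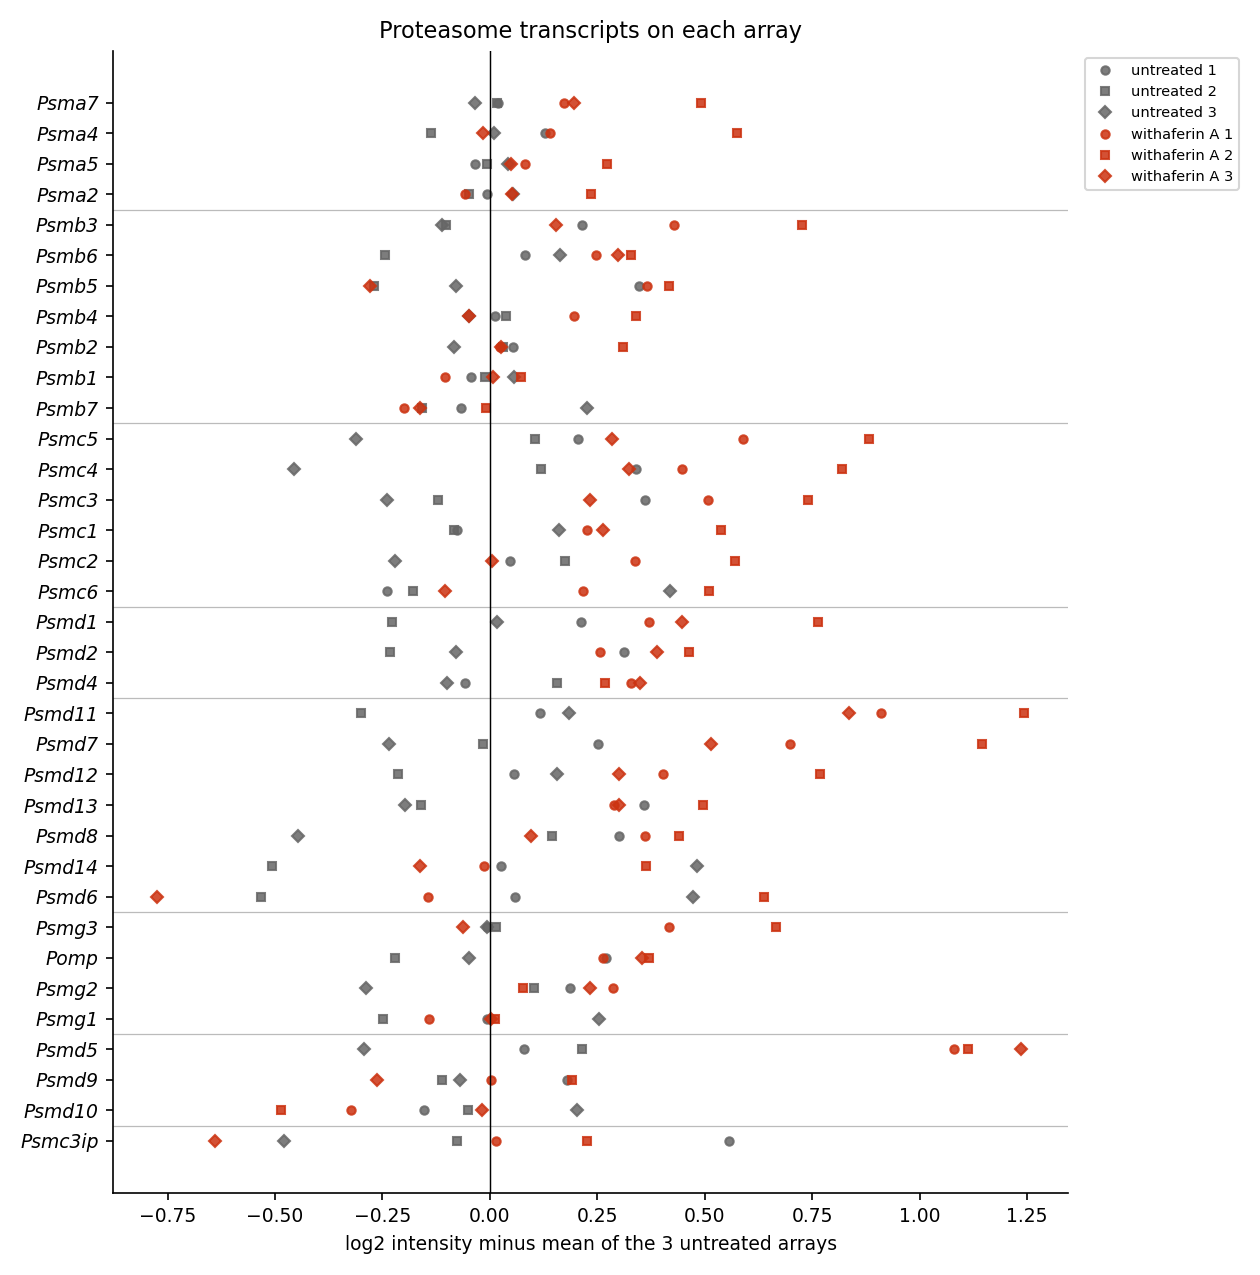
Log2 intensity of each tested gene on each array minus the mean of the 3 untreated arrays (x axis), with genes in rows grouped by role in the order of the plot of changes. Withaferin A array 2 (red squares) is the highest of the 6 arrays for 27 of 35 genes, while Psmd5 is similar on all 3 treated arrays.

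The chaperones of the core had 0 calls among 4 tested genes (against 2.81% of all tested genes called higher and 4.02% lower). Their median change was 0.26. Psmg3, which with Psmg4 helps the alpha ring form, read 8.36, 8.39 and 8.36 on untreated arrays and 8.79, 9.03 and 8.31 on treated arrays. Treated array 3 lay below the untreated arrays, which were close to each other (change 0.34, 95% interval -0.10 to 0.78, limma adjusted p = 0.317). Pomp, which guides the beta ring and is degraded once the core is complete, had a change of 0.33 (limma adjusted p = 0.265), and untreated array 1 lay between the treated arrays. Psmg2 had a change of 0.20, and -0.033 and 0.25 at its other probes. Psmg1, its partner in the alpha-ring chaperone, had the smallest change, with 8.73, 8.49 and 8.996 against 8.60, 8.75 and 8.75, which overlapped.

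Of the 16 members with several tested probes, 13 had the same sign at every probe, and Psmb7, Psmd9 and Psmg2 did not. Psmc3ip, taken by its symbol, encodes a meiotic recombination factor that binds Psmc3 and is no subunit. Its change was -0.13 (95% interval -0.79 to 0.52), with overlapping groups. Psma1, Psma3, Psma6, Psmd3 and Psmg4 were not well above background on any array and were not tested. With the unlit probes of tested genes they make 13 member probes of 55.7 to 82 raw intensity units. Psma1, Psma3, Psma6 and Psmd3 encode subunits that every complete proteasome holds, so a dim probe is a limit of that probe's reading here, and was not taken as absence of the transcript.

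The size of the shift differed between the treated arrays. Withaferin A array 2 was the highest of the 6 arrays for 27 of 35 genes, against 23.9% of all tested genes. Without array 2 the median change was 0.18, 26 of 35 genes were positive and 12 had every remaining treated array above every untreated array, against 18.3% of all genes. Of the calls, Psmd5 alone was made in that fit. The number of genes with every treated array above every untreated array also moved, to 17 without untreated array 1 (against 20.6% of all genes) and to 20 without withaferin A array 3 (against 23.9%). Mean log2 intensity over the 35 genes was 10.52, 10.31 and 10.38 on untreated arrays and 10.65, 10.88 and 10.53 on treated arrays. The group values did not overlap, with treated array 3 just above untreated array 1. Without normalization between arrays, 23 genes had positive changes and the median was 0.078, where the median over all genes was -0.23. In 3 genes every treated array then lay above every untreated array, against 4.22% of all genes. Relative to the median of all genes on the same scale, the members' median was 0.29 as reported and 0.30 without normalization. This relative median was 0.18 without withaferin A array 2 and 0.36 without withaferin A array 3. Whether array 2 and the dimmer treated arrays have a part in the shift was not tested.

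Other genes of the pathway were taken from 6 lists of 30 genes, of which 21 were tested. Among these 2 rose (against 2.81% of all tested genes), 1 fell (against 4.02%) and 18 did not pass. The genes that rose encode parts of the segregase, the ATPase complex that pulls ubiquitin-tagged proteins from membranes and assemblies before they reach the proteasome. Vcp, its ATPase, read 12.48, 12.33 and 12.30 on untreated arrays and 12.94, 13.13 and 12.94 on treated arrays. The groups were well apart, and Vcp rose 1.55-fold (log2 change 0.63, SE 0.15, limma adjusted p = 0.0393). Nploc4, a cofactor that binds ubiquitin, rose 1.67-fold (log2 change 0.74, SE 0.17, limma adjusted p = 0.0398). Both calls were lost without normalization between arrays (limma adjusted p = 0.0738 for Vcp and 0.144 for Nploc4), with median scaling (0.0583 and 0.124) and, for Nploc4, with no filter on dim probes (0.0857). Both were also lost in 5 of 6 fits that left out 1 array, all but the one without withaferin A array 3.

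The immunoproteasome genes had negative changes, and 1 of 3 fell past the threshold (against 4.02% of all tested genes). Psmb8, Psmb9 and Psmb10 encode the inducible catalytic subunits that replace Psmb5, Psmb6 and Psmb7 in the core. Psmb10 read 11.02, 10.03 and 10.62 on untreated arrays and 9.66, 9.24 and 9.64 on treated arrays. Every treated array was lower, and Psmb10 fell by 1.04 (SE 0.25, limma adjusted p = 0.0409), though the call was lost in 4 of 6 fits that left out 1 array (limma adjusted p of 0.0922 to 0.133 in those 4), all but those without untreated array 2 or withaferin A array 3. It was lost as well without background correction (limma adjusted p = 0.0564) and with no filter on dim probes (limma adjusted p = 0.155). Psmb8 had a change of -0.79 (limma adjusted p = 0.0871) and Psmb9 one of -0.53 (limma adjusted p = 0.147), both without overlap. Of all tested genes, 15.8% had every treated array below every untreated array. A second Psmb8 probe had -0.36 with overlapping groups (limma adjusted p = 0.350), and Psmb9 was above background on 1 of 3 treated arrays. The within-array log2 ratio of constitutive to inducible subunit was higher on every treated array than on every untreated array in each of the 3 pairs, which were compared after the values had been seen. That ratio differed between groups by 0.96 for Psmb5 over Psmb8, 0.82 for Psmb6 over Psmb9 and 0.92 for Psmb7 over Psmb10. Without withaferin A array 2 the difference for Psmb5 over Psmb8 was 0.54. The value for Psmb6 over Psmb9 rests on a probe near background, and was 0.53 without subtracting background and 0.52 in the deposited value table. The two-sided exact permutation test gave p = 0.1 for each and an adjusted p of 0.1 over the 3, the smallest value that 3 against 3 arrays can give.

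**Figure D4:**
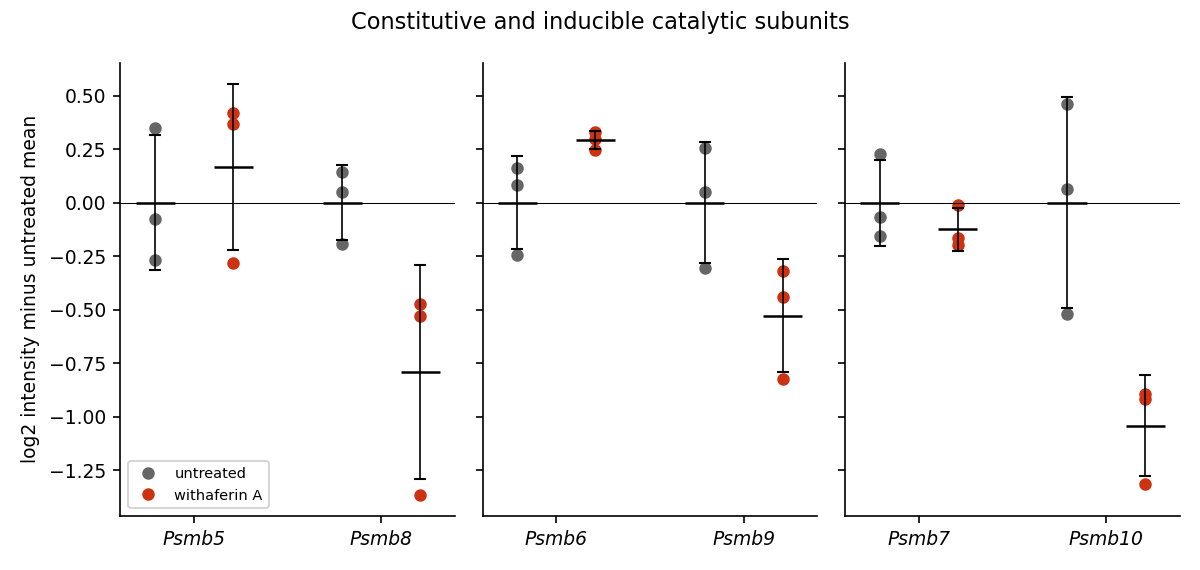
Log2 intensity minus the untreated mean (y axis) for each constitutive catalytic subunit and the inducible subunit that replaces it, with 1 point per array and bars at the mean ± SD (n = 3). The inducible genes lie lower on all treated arrays (as do 15.8% of all tested genes), by 0.79 (Psmb8), 0.53 (Psmb9) and 1.04 (Psmb10) on average. The constitutive genes average within 0.29 of their untreated mean.

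In the remaining lists 0 genes passed, where 2.81% of all tested genes were called higher and 4.02% lower. Of the proteasome activators, Psme1, which with Psme2 forms the interferon-inducible cap, had a change of -0.52 (limma adjusted p = 0.0898), with every treated array lower. It was called lower with median scaling (limma adjusted p = 0.0272) and without normalization (limma adjusted p = 0.0219). In those settings the median change over all genes was -0.18 and -0.23. Every treated array lay lower for 29.7% and 32.6% of all genes, against 15.8% as reported. The 3 tested shuttle receptors, which carry ubiquitin-tagged proteins to the base, had positive changes, and Rad23b, with the smallest p among them, had 0.40 (limma adjusted p = 0.194). Sem1, a small lid subunit outside the symbol rule, had -0.26 (limma adjusted p = 0.315), with every treated array lower. The transcription factor genes themselves had changes of 0.055 for Nfe2l1, which encodes NRF1, and -0.16 for Nfe2l2, which encodes NRF2 (limma adjusted p = 0.902 and 0.583). NRF1 and NRF2 are regulated mainly as proteins, which these arrays do not measure.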

How the data were processed

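The authors deposited unnormalized probe intensity values for 6 arrays of 45281 probes, per the file headers, each beside a detection score that was read as 1 minus a detection p, since it rises with intensity. A value table deposited beside them by the authors holds, from its values, log2 intensities centred within same-numbered pairs. Its column medians were -0.0027 to -0.00057 (untreated) and 0.00057 to 0.0027 (withaferin A), and its normalization stays unknown. Scale and direction were set by slopes of 1.01, 1.11 and 1.05 of unnormalized log2 ratios on its pair differences. No source used here names the scanner software.

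Intensities were corrected with normexp on 936 inferred negative controls, given an offset of 16, quantile-normalized and logged (neqc, limma 3.58.1, R 4.3.3). Probes with detection p under 0.05 on at least 3 arrays (19077) were fitted with lmFit and eBayes, two-sided, with Benjamini-Hochberg adjustment over all of them. A gene is its brightest tested probe. Symbols come from the platform annotation, 34885 probes with 1 symbol, 18 with several and 10378 unlisted. A gene table of assembly GRCm38.p6 changed 0 symbols. Promoters are from RefSeq. The fit was tested on simulated data. Members and lists were chosen with earlier results of these data known. Every member may be named, with array values for called genes and for the largest and smallest change of each role class. Of related genes, those called and the smallest p of each list are named, and Psmb8, Psmb9 and Nfe2l1 were added after their values were seen. The number of arrays limits precision.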

Additional observations from a re-analysis of the deposited data

How the results depend on the processing

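Psmd5 kept its direction and its call in all 14 alternatives, with log2 changes of 0.88 to 1.25 (limma adjusted p up to 0.0326). Psmd11 kept its direction, with 0.74 to 1.09, and lost its call in 3 (limma adjusted p up to 0.0653). Genes called higher numbered 13 of 35 in the deposited value table, fitted with a replicate block, where 12.5% of all genes were, 1 with no filter on dim probes (0.903% of all genes) and 1 to 3 with 1 array left out (1.05% to 3.79% of all genes). The median change was 0.12 with median scaling and 0.078 without normalization between arrays. Under either, 3 genes had every treated array above every untreated array and 1 had every one below. Of all genes, 5.33% lay wholly above and 29.7% wholly below with median scaling, and 4.22% and 32.6% without normalization. With 1 array left out, 11 to 20 members lay wholly above (17.6% to 23.9% of all genes). Wholly below lay 0 to 1 members (18.2% to 24.1% of all genes). Over all genes, 666 were called, and 2687 in the value table (1218 higher, 1469 lower), 1428 with median scaling (172 higher, 1256 lower), 1688 without normalization (160 higher, 1528 lower), 337 with no filter (172 higher, 165 lower) and 238 to 886 with 1 array left out (102 to 370 higher, 136 to 516 lower).

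Signs turned for genes that were called in neither setting. Without normalization they were -0.029 for Psma2, -0.0039 for Psmb2, -0.11 for Psmb5, -0.16 for Psmd14 and -0.048 for Psmg2, and with median scaling -0.065 for Psmb5, -0.12 for Psmd14 and -0.0058 for Psmg2. With all probes averaged they were 0.030 for Psmb7 and 0.099 for Psmd9. With 1 array left out the ranges were -0.0030 to 0.14 for Psma2, -0.049 to 0.039 for Psmb1, -0.37 to 0.15 for Psmc3ip, -0.19 to 0.30 for Psmd14, -0.46 to 0.25 for Psmd6, -0.13 to 0.097 for Psmd9 and -0.17 to 0.085 for Psmg1. The cause was not tested.

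Same-numbered samples did not deviate together throughout (r = 0.27, -0.039 and 0.32), so the numbers were not taken as pairs. From 3 arrays a group, these values cannot settle whether the numbers mark pairs. The deposited value table is centred within same-numbered pairs. With the replicate block 3 members were called (Psmd7 in addition, limma adjusted p = 0.0328), and 1023 genes in all (623 lower). The Psmb6 over Psmb9 difference was 0.52 in the value table and 0.53 with background left in. The precision of each change is limited by 3 arrays a group.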
